A study of Mus musculus with 6 samples.

Results

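The 37 genes described here encode the machinery with which the endoplasmic reticulum (ER) takes in, folds, checks and exports secreted proteins. They were chosen by gene symbol, and all 37 were found among the 43432 genes counted and all 37 passed the filter on low counts, as 37 of 12881 genes tested. The libraries are RNA sequencing of total RNA from mice, 3 labelled control and 3 labelled FID, all with skeletal muscle as source and all with the tag D3. The labels spell out neither FID nor D3. The series concerns deletion of Igf1 in fibro-adipogenic progenitors (FAPs), mesenchymal cells of muscle that make much of its collagen, and the promoter that drives the deletion is not given in the sources used here. The protocol common to all 6 libraries gives tamoxifen, the drug that switches on an inducible Cre, by injection to mice aged 12 to 13 weeks, 100 ug per g of mouse daily over 5 days. A pause of at least 1 week followed, and the study used mice of both sexes.

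Each library held 5201853 to 10093757 gene counts, control 1 being the shallowest. Igf1 measured 100.2 ± 37.3 CPM (gene counts scaled to a common library size) in control, compared with 99.2 ± 15.3 CPM for FID (SD, n = 3 per group), so whole-gene counts give no check of the labels, which are used as they stand. Markers of muscle fibres, the defining cells of the labelled tissue, summed to 16.9 to 94.9 CPM over 10 genes in the 6 libraries, against 31009 to 70630.0 CPM for 11 fibrillar collagen genes. Separate animals are not stated for the 3 libraries of a group. The p-values therefore cover only library-to-library spread, which may be technical. The protocols describe RNA of tissue and of primary FAPs and do not tell which these libraries hold. In bulk RNA, fewer cells of a type and less RNA per cell cannot be told apart.

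Secreted proteins enter the ER through the Sec61 translocon, are folded by chaperones such as BiP and by disulfide isomerases, and leave in vesicles coated with COPII. When unfolded protein builds up, the sensors IRE1, PERK and ATF6 start the unfolded protein response, in which the factors XBP1, ATF6 and ATF4 raise transcription of chaperones, degradation factors and the stress gene Ddit3. Fibroblasts that make collagen carry a heavy ER load, because procollagen is folded, hydroxylated and packed there before export. The comparison asked whether this machinery was lower together with collagen transcripts in the libraries labelled FID.

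The genes of this response are linked by a short promoter element, which is shown here because it is the classic sequence through which ATF6 and XBP1 act on chaperone genes. The ER stress response element (ERSE) was searched as CCAAT and CCACG separated by 9 bases of any kind, on both strands of the RefSeq promoter windows of assembly GRCm38.p6, which run from 250 bases before to 50 bases after the start. Promoters were held for 29 of the 37 genes, and 7 of these 29 (24.1%) had a match, against 0.137% of all 27025 genes with a promoter. The matches are printed 5′ to 3′ along the gene's strand with 5 flanking bases on each side, and capitals mark the fixed letters, which read as CGTGG and ATTGG where the element lies on the other strand.
Hspa5 (chr2:34772020-34772048, plus strand): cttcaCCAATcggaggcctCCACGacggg
Calr (chr8:84847070-84847098, minus strand): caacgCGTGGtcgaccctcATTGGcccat
Canx (chr11:50325795-50325823, minus strand): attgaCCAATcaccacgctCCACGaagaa
Dnajc3 (chr14:118937822-118937850, plus strand): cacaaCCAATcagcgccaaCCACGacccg
Creld2 (chr15:88819515-88819543, plus strand): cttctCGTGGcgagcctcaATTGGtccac
Pdia6 (chr12:17266486-17266514, plus strand): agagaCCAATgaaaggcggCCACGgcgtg
Syvn1 (chr19:6046527-6046555, plus strand): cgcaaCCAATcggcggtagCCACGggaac

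The shorter element ERSE-II, searched as ATTGG and CCACG separated by 1 base of any kind, was found in 2 of the 29 genes, Herpud1 and Dnajb11, against 0.0444% of all genes with a promoter. The core of the UPR element bound by XBP1, searched as TGACGTGG, was found in 3 of 29, Sec23a, Sec24d and Kdelr3, against 0.714% of all genes with a promoter. The following 3 matches before the RefSeq start belong to a degradation gene, an export gene and a KDEL receptor gene that the ERSE search did not reach. Capitals are as above, and the other 2 matches lie just after the RefSeq start. For Hspa5 and Sec24d the printed match lies inside the GENCODE span of the gene, which begins further upstream than the RefSeq start.
Herpud1 (chr8:94386372-94386392, plus strand): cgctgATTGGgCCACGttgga
Sec24d (chr3:123267465-123267482, plus strand): gcgccTGACGTGGcacta
Kdelr3 (chr15:79516373-79516390, plus strand): ccccgCCACGTCAccgcg
The cAMP response element TGACGTCA was found in 0 of 29 and the composite C/EBP-ATF motif TGATGNAAN in 1 of 29, Herpud1, against 2.03% and 4.5% of all genes with a promoter. ERSE, ERSE-II and the UPR element core share the letters CCACG on 1 strand. A match is a run of letters and not a measured binding site.

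Fibrillar collagen transcripts were lower in the libraries labelled FID, and the ER genes as a group were not, although no single gene of either group passed the main test. The 11 fibrillar collagen genes together took 6.21%, 6.97% and 6.34% of gene counts across control 1, 2 and 3, compared with 4.75%, 3.21% and 3.16% across FID 1, 2 and 3. The 37 ER genes together took 1.09%, 1.63% and 1.85% across control 1, 2 and 3, compared with 1.58%, 1.55% and 1.76% across FID 1, 2 and 3. The collagen shares of the groups did not overlap, whereas the ER shares of all 3 FID libraries lay between those of control 1 and control 3. The means were 6.51 ± 0.405% against 3.70 ± 0.904% for collagens and 1.52 ± 0.389% against 1.63 ± 0.115% for ER genes (SD, n = 3 each).

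**Figure D1:**
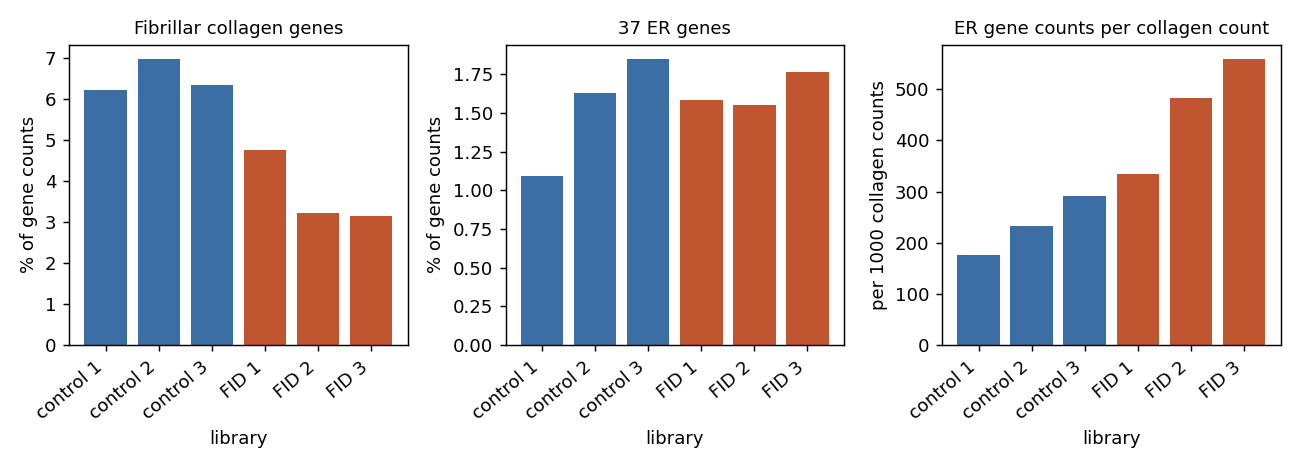
Share of gene counts (%) taken by 11 fibrillar collagen genes (left) and by the 37 ER genes (middle), and ER gene counts per 1000 collagen counts (right), 1 bar per library, control blue and FID orange. Collagen shares are 6.21 to 6.97% in control and 3.16 to 4.75% in FID, while the ER share is lowest in control 1 at 1.09% and spans 1.55 to 1.85% in the other libraries.

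Gene by gene, 11 of 11 fibrillar collagens and 16 of 37 ER genes had a log2 fold change (FID over control) below 0, against 52.2% of all genes tested. The median log2 fold change was -0.89 over the collagens, 0.03 over the ER genes and -0.02 over all 12881 genes. Col1a1, the main chain of type I collagen, measured 23312, 22389 and 20284 CPM across control libraries, compared with 14402, 10911 and 10260.2 CPM across FID libraries. With edgeR's quasi-likelihood test, adjusted by Benjamini-Hochberg over all genes, 0 of 37 ER genes, 0 of 11 collagens and 0 (0%) of 12881 genes passed at 0.05. At an unadjusted p under 0.05 stood 2 ER genes higher and 2 lower, against 9.81% of all genes higher and 9.21% lower, and 8 of 11 collagens lower. DESeq2 called Sdf2l1 and Ddit3 higher and 0 ER genes lower, where it called 3.66% of all genes higher and 2.27% lower, and it called 7 of 11 collagens lower. Limma-voom called 0 genes (0%), and with sample weights it called Sdf2l1, Ddit3, Mia3 and Crtap, where it called 11.9% of all genes, and 5.01% of all genes in the direction of Mia3 and Crtap, lower in FID. The approximate 95% interval of the fold change included 0 for 33 of 37 ER genes, and for 36 of 37 it lay wholly above the collagens' median of -0.89, the exception being Crtap. That count takes the collagen median as fixed, although it ranged from -1.13 to -0.77 with 1 library left out.

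The level of control 1 weighed on these values. Control 1 was the lowest of the 6 libraries for 26 of 37 ER genes, and control 3 the highest for 17. Without control 1 the median of the ER genes was -0.09 with 14 of 37 above 0, and that of the collagens was -0.82 with 11 of 11 below 0. Without control 3 the ER median was 0.13. The sign of the ER median therefore changed with the library left out, while its distance from the collagen median stayed between 0.73 and 1.16 with any 1 library left out. Endothelial markers stood highest in control 1 as well, at a sum of 4795 CPM over 10 genes against 1335 to 2170.4 CPM in the other 5 libraries. So did the sums of mural (2375 against 1066 to 1375 CPM), tenocyte (2329 against 400.0 to 1114 CPM), myoblast (82.7 against 12.7 to 51.7 CPM) and myofibre markers (94.9 against 16.9 to 40.8 CPM). The part of these markers in the low ER values of that library was not tested.

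**Figure D2:**
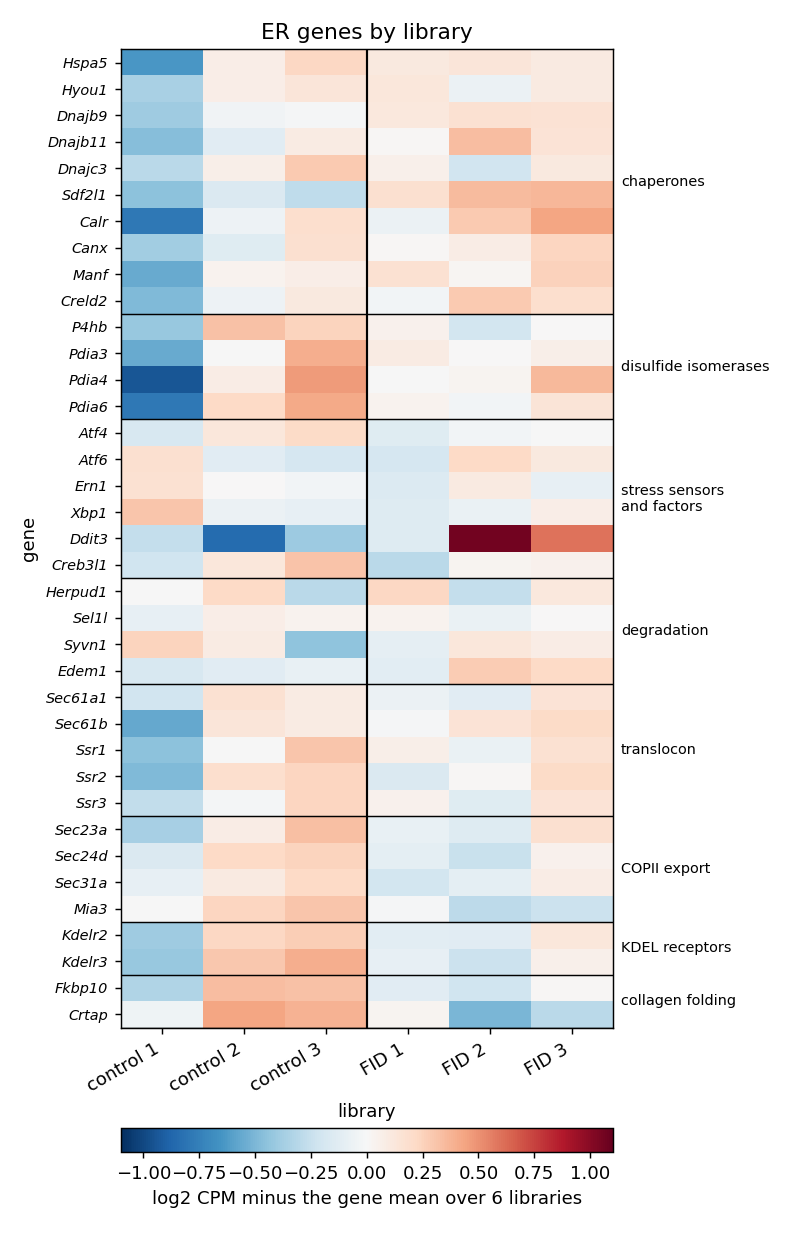
Log2 CPM of each of the 37 ER genes minus its mean over the 6 libraries, genes in rows by role and libraries in columns, red above and blue below the mean. Control 1 is the lowest library for 26 genes, and within FID the clearest departures are Ddit3, high in FID 2 and FID 3, and Sdf2l1, high in all 3.

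Of the chaperones and their partners, 9 of 10 had a log2 fold change above 0, with a median of 0.27. The 25 other folding genes of the ER did not share this lean, with 10 above 0, 15 below and a median of -0.05. Hspa5, which encodes BiP, the central ER chaperone (chromosome 2, 34771970 to 34777547 in mm10, plus strand), measured 1338, 2191 and 2442 CPM across control 1, 2 and 3, compared with 2251, 2279 and 2230.3 CPM across FID 1, 2 and 3. The FID libraries lay together inside the control range, which control 1 stretched downward, a log2 difference of 0.18 (SE 0.22; adjusted p 0.696 by edgeR). Calr, the lectin chaperone calreticulin, had the highest level per length of all 37, at 872 CPM per kb of exon. It measured 1409, 2336 and 2759.8 CPM across control libraries, compared with 2316, 2955 and 3285 CPM across FID libraries, with groups that overlapped and a log2 fold change of 0.40 (SE 0.26) that was 0.16 without control 1 and 0.62 without control 3. Canx, its membrane-bound relative calnexin, ranged from 661 to 976 CPM in control and from 869.8 to 1016 CPM in FID, again overlapping.

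Sdf2l1, a partner of BiP's DnaJ cochaperones that is induced by ER stress (chromosome 16, 17130138 to 17132383, minus strand), had the smallest p of the 37. It measured 40.3, 49.6 and 45.6 CPM across control 1, 2 and 3, compared with 62.7, 70.5 and 71.2 CPM across FID 1, 2 and 3. Every FID library exceeded every control, and the libraries of each group lay close together. Averages were 45.2 ± 4.63 CPM for control and 68.1 ± 4.73 CPM for FID (SD, n = 3; log2 change 0.59, SE 0.13), with adjusted p 0.136 in edgeR's quasi-likelihood test and 0.0119 in DESeq2. With any 1 library left out the log2 fold change stayed between 0.52 and 0.67.

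Dnajb9, a DnaJ cochaperone that binds BiP and restrains IRE1, measured 114, 146 and 148 CPM across control libraries, compared with 162, 168 and 167 CPM across FID libraries. Its groups did not overlap either, but the gap from control 3 to FID 1 was small beside the spread within control (log2 change 0.28, SE 0.14, edgeR adjusted p 0.312). Sdf2l1, Dnajb9 and Ddit3 were the 3 ER genes whose FID libraries all lay above control, against 13% of all genes tested, and Mia3 was the 1 below, against 12.3%. Among the remaining cochaperones and stress-induced chaperones, Dnajb11, Manf and Creld2 had log2 fold changes of 0.32, 0.27 and 0.27 (SE 0.17, 0.19 and 0.18), which were 0.19, 0.094 and 0.13 without control 1. Manf shares exon sequence with genes on both strands, among them Rbm15b, so its counts are less certain. Hyou1, the large chaperone that exchanges BiP's nucleotide, and Dnajc3, a cochaperone that restrains PERK, had 0.09 (SE 0.16) and -0.05 (SE 0.18). Without control 1 the chaperones had a median of 0.11, with 7 of 10 above 0, and the 25 other folding genes a median of -0.23, with 6 above 0.

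The 4 disulfide isomerases, which form and reshuffle disulfide bonds, showed no shared direction. P4hb, which is also the beta subunit of collagen prolyl 4-hydroxylase, measured 1455, 2432 and 2304 CPM across control libraries, compared with 2016, 1692 and 1950.0 CPM across FID libraries. Pdia4 spread most within control, at 183, 373 and 486 CPM, against 351, 359 and 449.5 CPM across FID libraries. In both genes control 1 was the lowest library and the groups overlapped. Pdia3, which works with calnexin and calreticulin on glycoproteins, and Pdia6, which dampens IRE1, had a log2 change of 0.06 (SE 0.23) and of 0.01 (SE 0.29). The median of the 4 was 0.03, and without control 1 it was -0.22 with 4 of 4 below 0.

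Among the sensors and transcription factors, Ddit3 stood apart from the rest. Ddit3 encodes CHOP, a factor of the late stress response that acts downstream of ATF4 (chromosome 10, 127290774 to 127296288, plus strand). It measured 10.5, 6.99 and 9.57 CPM across control 1, 2 and 3, compared with 11.4, 26.2 and 19.0 CPM across FID 1, 2 and 3. FID 2 and FID 3 were well above every control library, whereas FID 1 exceeded control 1 by little. The log2 fold change was 1.08 (SE 0.32), with adjusted p 0.166 in edgeR's quasi-likelihood test and 0.0496 in DESeq2. Without FID 1, the FID library in which Ddit3 was lowest, edgeR called it at 1.35, in a fit that called 2.73% of all genes. Its log2 fold change was 0.76 without FID 2. Interferon response markers showed the same 2 libraries high, with a sum over 10 genes of 728 CPM in FID 1, 5660.3 CPM in FID 2 and 3120.5 CPM in FID 3 against 240.0 to 855 CPM in control, and their part in the Ddit3 values was not tested. Ddit3 overlaps exons of Mars on the opposite strand, and the strand setting of the counting is not given. Mars had 51.7 ± 11.4 CPM for control and 53.7 ± 7.49 CPM for FID (SD, n = 3 per group).

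The other 5 genes of this role had log2 fold changes between -0.16 and 0.09. Atf4, whose product drives Ddit3 when PERK is active, measured 191, 236 and 249.6 CPM across control libraries, compared with 198, 212 and 216 CPM across FID libraries. Xbp1, the factor that IRE1 activates by splicing its mRNA, measured 213, 165 and 162 CPM across control libraries, compared with 156, 164 and 181 CPM across FID libraries, and gene counts do not separate its spliced form. Ern1, which encodes IRE1, had the lowest level per length of the 37, at 3.82 CPM per kb, and measured 35.0, 31.2 and 30.5 CPM across control libraries, compared with 27.9, 33.4 and 29.2 CPM across FID libraries. The groups overlapped in each of these genes. Atf6, the sensor that is cleaved in the Golgi, had 0.09 (SE 0.16), and Creb3l1, an ER-bound factor that drives type I collagen transcription in bone, had -0.16 (SE 0.17).

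Genes of ER-associated degradation, which returns misfolded proteins to the proteasome, lay near 0 with a median of 0.05. Edem1, a mannosidase-like factor that pulls misfolded glycoproteins out of folding, measured 163, 169 and 174 CPM across control libraries, compared with 170.2, 224 and 215 CPM across FID libraries (log2 change 0.27, SE 0.14). FID 2 and FID 3, the libraries in which Ddit3 was highest, were above control, and FID 1 was inside its range. The ubiquitin ligase gene Syvn1 and its partner Sel1l had 0.05 (SE 0.19) and -0.02 (SE 0.12), Syvn1 sharing exon sequence with Mrpl49 on the opposite strand. Herpud1, a stress-induced part of the same complex, had 0.05 (SE 0.18).

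Translocon genes had differences near 0, with a median of 0.03. Sec61a1, the channel subunit, measured 429, 557 and 529 CPM across control libraries, compared with 476, 455 and 550.4 CPM across FID libraries, and its 95% interval ran from -0.39 to 0.32 on the log2 scale. Sec61b, a small subunit of the channel, and the 3 subunits of the translocon-associated TRAP complex, Ssr1, Ssr2 and Ssr3, had log2 fold changes of 0.19, 0.07, 0.01 and 0.03 (SE 0.16 to 0.21). Control 1 was the lowest library for all 5, and without it 4 of 5 were below 0, with a median of -0.10.

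Export, retrieval and collagen-directed folding genes leaned downward, 8 of 8 having a log2 fold change below 0, roles placed together here after their sign was seen. Of the longer lists of other genes of these routes, the collagen-modifying one also leaned downward (8 of 11 below 0, median -0.17). The longer export and retrieval lists did not, with 16 of 24 genes (median 0.06) and 7 of 13 (median 0.01) above 0. Without control 1 those 2 lists had 11 of 24 (median -0.04) and 4 of 13 (median -0.096) above 0. Mia3 encodes TANGO1, the receptor that loads bulky procollagen into COPII carriers (chromosome 1, 183326725 to 183369553, minus strand). It measured 120.1, 142 and 148 CPM across control 1, 2 and 3, compared with 119, 98.5 and 102 CPM across FID 1, 2 and 3. All FID libraries lay below control, although FID 1 and control 1 nearly met, with a log2 fold change of -0.36 (SE 0.14; adjusted p 0.226 by edgeR, limma-voom with sample weights adjusted p 0.0381). The coat genes Sec24d, Sec31a and Sec23a, of which Sec23a and Sec24d are known for defects of collagen secretion when mutated, had -0.21 (SE 0.16), -0.15 (SE 0.14) and -0.06 (SE 0.19).

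Crtap encodes cartilage-associated protein, a part of the complex that 3-hydroxylates prolines of fibrillar collagen (chromosome 9, 114375134 to 114390675, minus strand). It measured 159.8, 224 and 215 CPM across control 1, 2 and 3, compared with 169, 117 and 134 CPM across FID 1, 2 and 3. Control 1 and FID 1 crossed, and the other libraries separated. The log2 fold change of -0.51 (SE 0.19; adjusted p 0.218 by edgeR) was the lowest of the 37, and it stayed between -0.66 and -0.40 with any 1 library left out. Fkbp10, a prolyl isomerase for procollagen that shares exon sequence with Nt5c3b on the opposite strand, measured 267, 426 and 421 CPM across control libraries, compared with 308, 288 and 339.9 CPM across FID libraries (log2 change -0.25, SE 0.20), and the KDEL receptors Kdelr2 and Kdelr3, which return ER proteins from the Golgi, had -0.10 (SE 0.20) and -0.22 (SE 0.22). Without control 1 all 8 were again below 0, with medians of -0.28 for export, -0.36 for the KDEL receptors and -0.55 for collagen-directed folding. Without control 3, Sec23a and Kdelr2 were above 0, at 0.13 and 0.028.

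**Figure D3:**
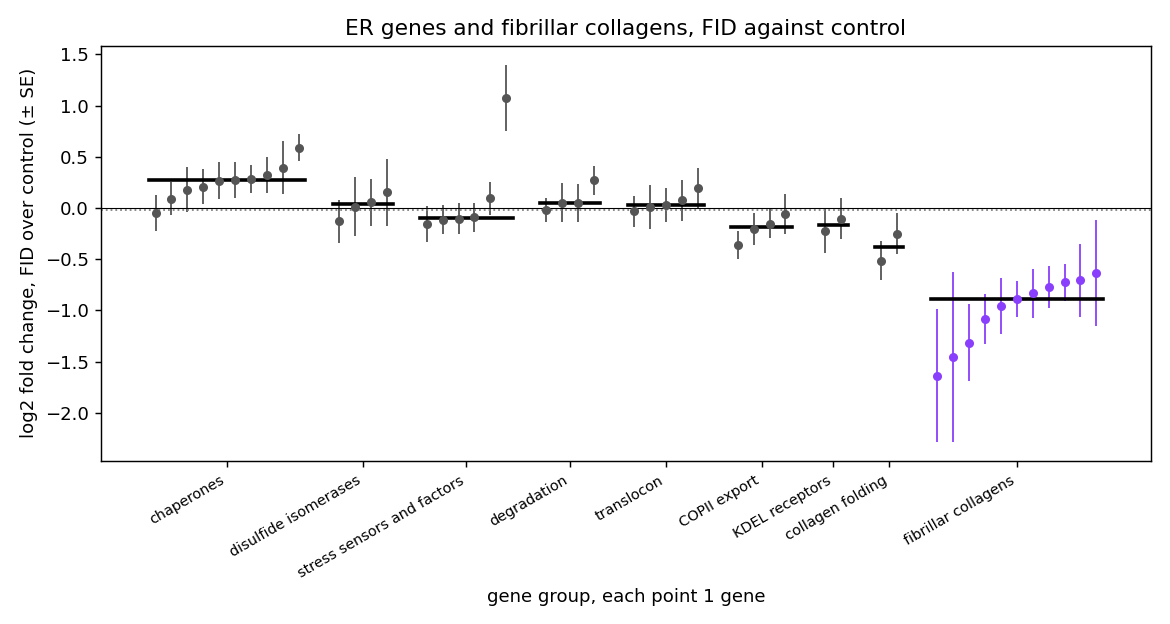
Log2 fold change of each gene, FID over control, with its SE, grouped by role; black bars are group medians and the dotted line is the median of all genes tested. ER roles have medians from -0.38 to 0.27, and the fibrillar collagens (purple) -0.89.

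**Figure D4:**
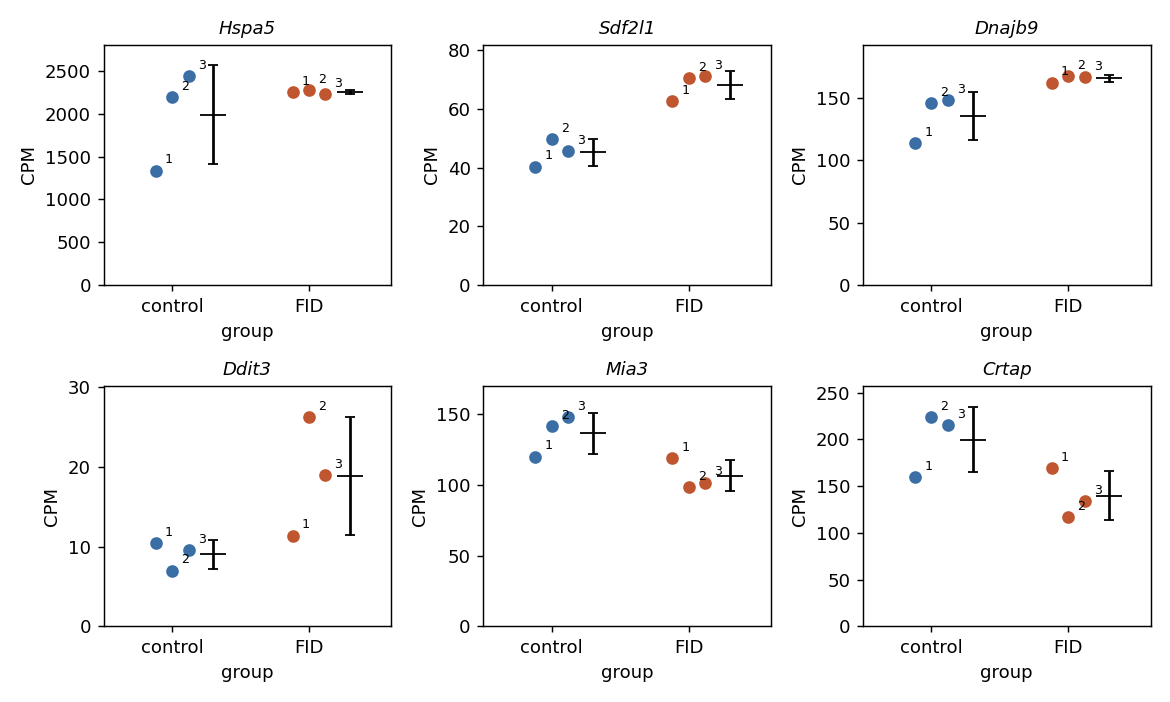
CPM of 6 ER genes in each library (points, numbered by replicate) with mean and SD (black, n = 3). FID lies above control for Sdf2l1, Dnajb9 and Ddit3 and below it for Mia3, while the groups overlap for Hspa5 and Crtap.

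Fold changes were also read by promoter match. Of the 7 genes with an ERSE match 6 had a log2 fold change above 0, with a median of 0.18 and a range of -0.05 to 0.40, and of the 22 with a promoter but no match 11 did, with a median of 0.00 and a range of -0.51 to 1.08. All 3 genes with the UPR element core, Sec23a, Sec24d and Kdelr3, were below 0, at -0.06 to -0.22. None of these genes passed edgeR's test, and the groups are too small to set against each other.

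Whether the ER genes were lower together with collagen was also tested as a ratio, by scaling each library to its fibrillar collagen counts instead of its total. ER gene counts per 1000 collagen counts were 176, 233 and 291 across control 1, 2 and 3, compared with 334, 484 and 559 across FID 1, 2 and 3, without overlap. In edgeR's quasi-likelihood test on this scale the ratio to collagen rose in FID for 33 of 37 ER genes at an adjusted p under 0.05, against 61.2% of all genes, and 35 of 37 passed at an unadjusted p under 0.05, against 67% of all genes. A lower ratio passed for 0 of 37, against 0.124% of all genes. The median log2 ratio was 0.92 for the ER genes and 0.86 for all genes, so the ER genes stood to collagen much as the bulk of genes did. All 37 ratios were above 0, as were those of 12330 of all 12881 genes. The 4 that did not pass were Kdelr3 at 0.67 (SE 0.30, adjusted p 0.0542), Fkbp10 at 0.64 (SE 0.30, adjusted p 0.0633), Mia3 at 0.50 (SE 0.27, adjusted p 0.110) and Crtap at 0.34 (SE 0.28, adjusted p 0.281) in that test. The largest ratios of the 37 were those of Ddit3 at 2.00 (SE 0.38) and Sdf2l1 at 1.49 (SE 0.29).

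How many ratios passed depended on single libraries. Without control 1 it was 22 of 37 (59.5%), close to the 58.8% of all genes that passed in the same fit. It was 13 (35.1%) without control 2 against 27.9% of all genes, and 30 (81.1%) without control 3 against 50.2%. It was 36 (97.3%) without FID 1 against 71% of all genes, 18 (48.6%) without FID 2 against 32.8%, and 10 (27%) without FID 3 against 22.3%. All 37 ratios were above 0 each time, and with all 6 libraries so were those of 12330 of 12881 genes. Scaled to 20 other secreted matrix genes in place of the collagens, 25 of 37 passed, against 53.2% of all genes. Those 20 genes were themselves lower in FID, 20 of 20 below 0 against 52.2% of all genes, with a median log2 fold change of -0.74. This scaling is therefore not a reference that held level between the groups. Scaled to 12 FAP markers, 0 of 37 and 0 of 12881 genes passed, with 26 of 37 ratios above 0 and a median of 0.14. Ly6a belongs to that list. It measured 434 to 662 CPM across control libraries, compared with 497, 2327 and 1889.6 CPM across FID 1, 2 and 3. By contrast, 10 of the 12 markers had a log2 fold change below 0. Their summed counts therefore leaned on a gene that was uneven among FID libraries. With such a reference, the 0 passing genes cannot decide how ER genes stood to FAP transcripts. Scaling without Ly6a was not tested.

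**Figure D5:**
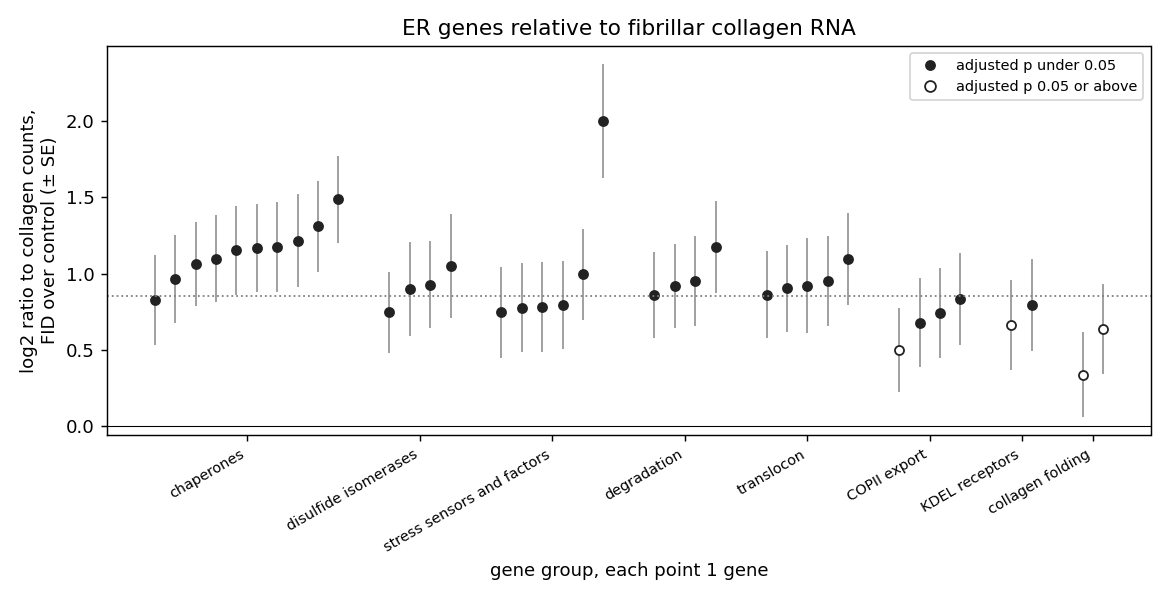
Log2 ratio of each ER gene to fibrillar collagen counts, FID over control, with its SE; filled points have an edgeR adjusted p under 0.05 and the dotted line is the median of all genes. All 37 lie above 0, as do 12330 of all 12881 genes, and the 4 open points are Mia3, Kdelr3, Crtap and Fkbp10.

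Markers of other cells also differed between the groups. Macrophage markers summed to 3654 to 5878 CPM over 12 genes in control and to 7685 to 10364 CPM in FID, without overlap, and 12 of 12 had a log2 fold change above 0. FAP markers had a mean log2(CPM + 1) of 7.82 to 7.98 in control and 7.45 to 7.66 in FID, also without overlap, with 10 of 12 below 0, although their summed levels overlapped (5336 to 5979 CPM in control, 4736 to 6055 CPM in FID). Ly6a, 1 of the 2 markers above 0, gave 2327 and 1889.6 CPM of the sums in FID 2 and FID 3, against 434 to 662 CPM in control. Mural markers summed to 1261 to 2375 CPM in control and to 1066 to 1251 CPM in FID, without overlap and with 7 of 8 below 0. Their mean log2(CPM + 1) overlapped, at 6.31 to 7.36 in control and 5.96 to 6.39 in FID. Tenocyte markers, 4 of 5 of them below 0, summed to 883 to 2329 CPM in control and 400.0 to 1114 CPM in FID. Neutrophil markers summed to 41.1 to 47.8 CPM in control and 56.0 to 90.0 CPM in FID, with 5 of 5 tested above 0. Csf3r gave much of that sum, with means of 24.2 CPM in control and 41.6 CPM in FID. Their mean log2(CPM + 1) overlapped, at 1.57 to 2.41 in control and 2.39 to 2.79 in FID. Plasma cells are rich in ER, and several of their markers were scarcely seen. Igkc and Tnfrsf17 had 0 counts in all 6 libraries, and Jchain and Mzb1 stayed at or below 0.20 CPM. Ighm measured 6.64 to 14.6 CPM in control and 13.7 to 27.5 CPM in FID (log2 change 0.78, SE 0.36). The 3 markers that passed the filter were all above 0, the others being Cd79b at 0.98 (SE 0.50) and Sdc1 at 0.02 (SE 0.14). The 12 plasma and B cell markers summed to 119 to 167 CPM over the 6 libraries, of which Sdc1 alone gave 102 to 134 CPM. The part of any of these marker levels in the ER or collagen values was not tested.

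Other genes of the ER and its export route, 130 in all of which 126 passed the filter, had fold changes centred near 0. In edgeR's test 0 of 126 passed, and their median log2 fold change was 0.02. At an unadjusted p under 0.05, 5 of 126 were higher and 5 lower, against 9.81% of all genes higher and 9.21% lower. Among folding genes Hsp90b1, the ER form of HSP90 and the most abundant of its list, measured 952 against 969.7 CPM (log2 change 0.03, SE 0.30), while the prolyl isomerase gene Fkbp2 had 0.49 (SE 0.14) and the isomerase gene Pdia5 -0.58 (SE 0.20). Among translocation genes Sec11c, a catalytic subunit of signal peptidase, had 0.69 (SE 0.20), Srp14, of the signal recognition particle, 0.27 (SE 0.11) and Stt3a, of oligosaccharyltransferase, 0.08 (SE 0.18). Translocation and N-glycosylation genes were above 0 in 21 of 26 cases, with a median of 0.06, and without control 1 in 9 of 26.

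The other collagen-modifying genes of the ER leaned the way of Crtap. Of 11 genes 8 were below 0 with a median of -0.17, and without control 1 it was 10 of 11 with a median of -0.39, whereas without control 3 it was 6 of 11 with a median of -0.05. P3h3 and P3h4, which belong to a complex that modifies collagen lysines, had the smallest p, at -0.79 (SE 0.23) and -0.42 (SE 0.19), and P3h3 measured 147 against 84.8 CPM and was called by DESeq2 (adjusted p 0.0422) but not by edgeR (adjusted p 0.164). DESeq2 called 2.27% of all genes lower. Serpinh1, which encodes the collagen chaperone HSP47 and was the most abundant, measured 2892 against 2533 CPM (-0.19, SE 0.28). For P3h3 the log2 ratio to collagen counts, FID over control, was 0.03.

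Stress genes outside the 37 were split by sign, 7 of 15 being above 0 with a median of -0.14. Their mean log2(CPM + 1) was nevertheless lower in FID without overlap, at 5.36 to 5.46 in control and 5.26 to 5.34 in FID. Their summed levels overlapped (1228 to 1502 CPM in control, 1100 to 1289 CPM in FID). In 3 of the 15 all FID libraries lay below control and in 0 above, against 12.3% and 13% of all genes. Cebpb, a factor that pairs with CHOP, had -0.99 (SE 0.35), Ppp1r15b, which restores translation by removing phosphate from eIF2 alpha, had -0.28 (SE 0.13), and Atf3, a stress factor, had 0.25 (SE 0.22). The CHOP target gene Trib3 and Asns, a target of ATF4, had 0.12 (SE 0.37) and 0.06 (SE 0.19); these 2 were named after their values were seen. In the export list Sar1b, a GTPase of the COPII coat, had 0.46 (SE 0.14), Sec24b -0.33 (SE 0.14) and the cargo receptor gene Surf4 0.05 (SE 0.17). Derl2 and Edem2 of the degradation list had 0.32 (SE 0.14) and 0.30 (SE 0.13), and Vcp, the ATPase that extracts proteins from the ER membrane, 0.01 (SE 0.14). In the COPI and retrieval list Golga2, Copz1 and Copa had -0.27 (SE 0.14), 0.20 (SE 0.12) and -0.02 (SE 0.14).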

How the data were processed

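The deposited files hold raw counts of reads per gene by Ensembl identifier, made by the authors with build mm10 and with HTSeq, STAR, Bowtie2 2.5.4, SAMtools, cutadapt and DESeq2 among the tools, per the submitters' processing notes, which give no role or order. The strand setting and the annotation are not stated. Entries that name no gene (9.60 to 10.9% of each file, reads with several matches included) were left out. Of 43432 genes, 97.8% matched a symbol. Genes were filtered with filterByExpr (minimum count 10, minimum total 15), scaled by TMM and tested with edgeR 4.0.16's quasi-likelihood test, group as the only term, with Benjamini-Hochberg adjustment over all genes. SE is the absolute log2 fold change over the square root of F, and intervals use the t quantile. The ratio test replaced library sizes by summed fibrillar collagen counts. DESeq2 1.42.0, limma 3.58.1 (voom), other scalings, no filter, a replicate block and leaving out each library were alternatives. Scripts were tested on simulated data. Exon lengths and coordinates come from GENCODE for GRCm38. The members and lists were chosen with earlier results of these data known. Any of the 37 genes could be named; of each other ER list, the 2 genes with the smallest p and the most abundant one.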

Additional observations from a re-analysis of the deposited data

How the results depend on the processing

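The 0 genes called over all genes by edgeR became 269 with no filter on low counts, 764 in DESeq2 and 1531 in limma-voom with sample weights, and ranged from 0 to 359 with 1 library left out, the highest without FID 1. The 0 ER genes called became 2 in DESeq2 and 4 in limma-voom with sample weights, and ranged from 0 to 1 with 1 library left out. The cause was not tested. The ratio to collagen was called for 33 ER genes (61.2% of all genes) and for 10 to 36 with 1 library left out (22.3% to 71% of all genes), so the count moved with that of all genes. With other genes in place of the collagens, the ratio was called for 25 ER genes on other secreted matrix genes (53.2% of all genes) and for 0 on FAP markers (0% of all genes). Those matrix genes were themselves lower in FID, and the FAP sum leaned on Ly6a, which was uneven among FID libraries. With 1 library left out, the ER median ranged from -0.091 to 0.13, the collagen median from -1.13 to -0.77 and their difference from 0.73 to 1.16.

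Direction changed in 5 ER genes near 0 under other settings. With sample weights the log2 fold change was -0.074 for Herpud1, -0.081 for Pdia6, 0.023 for Xbp1 and -0.049 for Ssr2, and for Sel1l it was 0.0024 without scaling factors and 0.0053 without the filter. With 1 library left out, 17 ER genes took either sign, which were Dnajc3 (-0.19 to 0.11), Herpud1 (-0.057 to 0.19), Hspa5 (-0.041 to 0.37), Hyou1 (-0.046 to 0.20), Kdelr2 (-0.29 to 0.028), P4hb (-0.33 to 0.013), Pdia3 (-0.16 to 0.32), Pdia4 (-0.15 to 0.49), Pdia6 (-0.27 to 0.27), Sec23a (-0.22 to 0.13), Sec61a1 (-0.14 to 0.052), Sel1l (-0.066 to 0.022), Ssr1 (-0.10 to 0.28), Ssr2 (-0.19 to 0.15), Ssr3 (-0.091 to 0.18), Syvn1 (-0.11 to 0.19) and Xbp1 (-0.17 to 0.032). Sdf2l1, Ddit3, Mia3 and Crtap kept their direction in every setting run. Same-numbered libraries had deviations correlated at -0.013, -0.32 and 0.34, and differently numbered libraries at -0.38 to 0.33. These values, from 3 libraries per group, cannot decide whether the replicate numbers pair the libraries. With the number as a replicate block, edgeR called 0 genes and 0 ER genes, and 32 ER genes in the ratio to collagen, against 50.3% of all genes. Depth limits Ddit3 most, whose counts started at 53 in a library.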
